A study of Mus musculus with 4 samples.

Results

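The genes described here encode 48 subunits of the mitochondrial respiratory chain, measured by RNA sequencing in mouse macrophages. They were chosen by symbol from a fixed list and found by their Ensembl identifiers, 48 of the 48795 genes counted. Of these, 40 lie in the nuclear genome, with 22 for complex I, 4 for complex II, 6 for complex III and 8 for complex IV, and 8 lie in the mitochondrial genome. The 2 tested libraries came from bone marrow-derived macrophages of C57BL/6 mice transfected with siRNAs against IRF2, and the 2 control libraries from the same kind of cells transfected with a control siRNA. Both groups had grown for 5 days with 50 ng/ml of murine M-CSF, the growth factor that drives marrow cells to become macrophages, and 10% FBS, received 50 nM of siRNA and were collected 48 h later as total RNA. An siRNA is a short RNA duplex through which the cell destroys mRNAs of complementary sequence. IRF2 belongs to the interferon regulatory factors and binds DNA elements found in promoters that respond to interferon.

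The respiratory chain sits in the inner mitochondrial membrane. Complexes I and II take electrons from NADH and succinate, ubiquinone carries them to complex III, cytochrome c to complex IV, and complex IV hands them to oxygen, while complexes I, III and IV pump protons that ATP synthase uses. All subunits of complex II are made from nuclear genes, whereas complexes I, III and IV each hold a core made from mitochondrial DNA that must be matched by nuclear subunits. Mitochondrial mRNAs and rRNAs are cut from long transcripts of the mitochondrial genome. In macrophages, the balance between this chain and glycolysis is known to shift with activation.

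Reads counted in genes numbered 26378584 and 26895100 in the IRF2 siRNA libraries, and 29862296 and 32273565 in the control libraries. Irf2 itself had 56.0 and 56.1 CPM in the IRF2 siRNA libraries, against 163.9 and 151.6 CPM in the control libraries, a log2 fold change of −1.49 (SE 0.11, edgeR quasi-likelihood test, adjusted p = 0.00477). CPM is a gene's read count scaled to library size, here with TMM normalisation, and is used to compare 1 gene across libraries. The 8 macrophage markers together gave between 24284 and 25547 CPM in IRF2 siRNA libraries and between 23690 and 26181 CPM in control libraries, and 0 of 8 were called. Summed neutrophil, dendritic cell, lymphocyte, fibroblast, erythroid and mast cell markers each came to at most 31.5 CPM in any library. In such bulk RNA, fewer cells of a type and less RNA per cell cannot be told apart. Whether the libraries of a group stem from different cultures or mice is not stated in the labels. The p-values therefore reflect only how far these libraries scatter, which may be technical.

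Reads of the mitochondrial genes were counted very unevenly, and sequence shared with the nuclear genome ran alongside that. mt-Co1, the catalytic subunit of complex IV, had 249750 and 266295 reads in the IRF2 siRNA libraries, and 335322 and 334147 reads in the control libraries. mt-Co2 and mt-Co3, the other mitochondrial subunits of the same complex, had almost none. For mt-Co2 the IRF2 siRNA libraries held 16 and 15 reads and the control libraries 19 and 18, and for mt-Co3 the IRF2 siRNA libraries held 12 and 9 reads and the control libraries 13 and 8. Both are core subunits without which complex IV is not built, and these counts are given without reading them as levels of the mRNAs. Every 50-base stretch of mt-Co2, 100% of them, also occurs in another annotated transcript, and 99.9% of those of mt-Co3 do. Gm28661, an unprocessed pseudogene on chromosome 1, matches mt-Co2 over 681 bases with 0 mismatches, and Gm28437, also on chromosome 1, matches mt-Co3 over 783 bases with 0 mismatches. A read that fits both places equally well is not counted for either gene by the counting tool named in the labels when it is marked as aligned to more than 1 place. Such reads made up 13.1% and 12.5% of all reads listed in the IRF2 siRNA libraries, and 15% and 13.1% in the control libraries. What share of them came from these genes was not tested.

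The stretches below show the letters shared by mt-Co2, at chrM:7308-7397 on the plus strand, and its copy Gm28661, at chr1:24615181-24615270 on the minus strand, and by mt-Cytb, at chrM:14672-14761 on the plus strand, and its closest copy Gm11410, at chr4:80004516-80004605 on the plus strand. All are GRCm38 sequence from GENCODE M21 transcripts, and capitals mark bases that differ between a gene and its copy.
mt-Co2: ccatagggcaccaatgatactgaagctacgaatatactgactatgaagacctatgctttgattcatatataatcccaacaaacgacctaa
Gm28661: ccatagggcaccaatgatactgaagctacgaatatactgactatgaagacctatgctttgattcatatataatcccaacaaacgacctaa
mt-Cytb: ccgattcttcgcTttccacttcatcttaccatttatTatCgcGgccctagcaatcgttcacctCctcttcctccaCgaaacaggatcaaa
Gm11410: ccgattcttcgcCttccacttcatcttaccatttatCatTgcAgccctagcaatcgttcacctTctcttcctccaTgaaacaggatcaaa
The first pair has 0 differences over 90 bases. The second has 6, written T540C, T564C, C567T, G570A, C591T and C603T with the mitochondrial base first and positions counted from 1 at the first base of mt-Cytb. Over its whole aligned length of 1142 bases, Gm11410 is 92.91% identical to mt-Cytb. Of the 50-base stretches of mt-Cytb, 0% occur in another annotated transcript. For mt-Nd1 that share was also 0%, for mt-Nd5 7.61%, for mt-Nd2 8.19%, for mt-Co1 51.1% and for mt-Nd4 62.2%. The mitochondrial genes that are not among the 48 followed the same split. mt-Nd3, mt-Nd4l and mt-Atp6, with 98.0%, 98.8% and 99.5% of stretches shared, had at most 20 reads in any library. mt-Nd6, with 0% shared, had at least 17238 reads in every library. mt-Atp8, the shortest of these genes at 204 bases, had 0% shared with annotated transcripts and at most 1 read. Only annotated transcripts were searched, so nuclear sequence between annotated genes was not covered. On chromosome 1 such a stretch lies between Gm10925, a copy of mt-Atp6 that ends at 24614651, and Gm28661, which starts at 24614885. Whether that stretch matches mt-Atp8 was not tested.

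**Figure D1:**
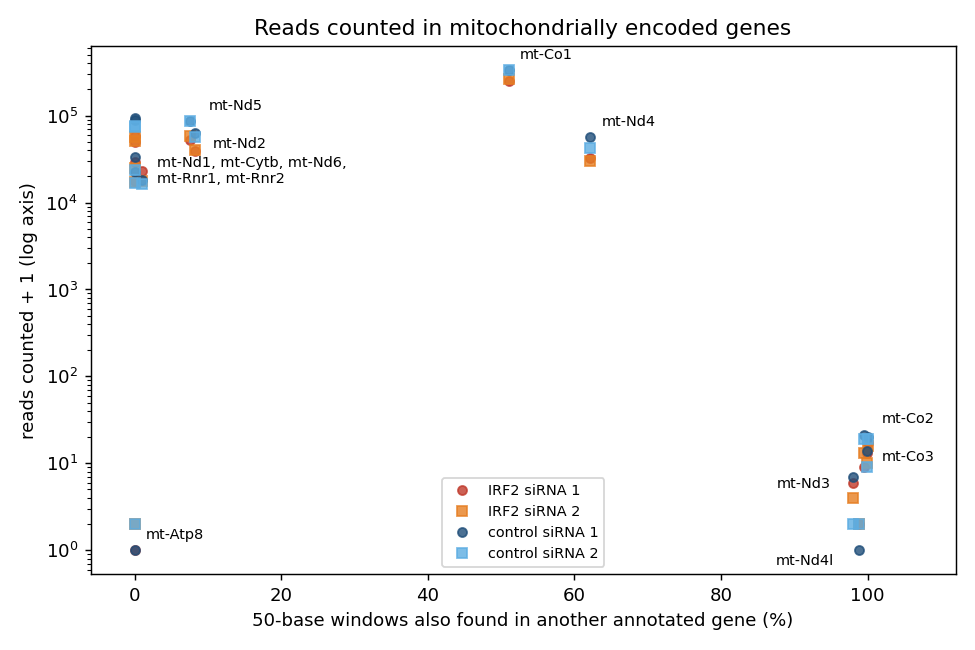
Reads counted per mitochondrial gene plus 1 (log axis) against the percent of its 50-base stretches that also occur in another annotated transcript, 1 point per library. Genes with nearly all stretches shared, mt-Co2 at 100% and mt-Co3 at 99.9% among them, had at most 20 reads, while mt-Nd1 and mt-Cytb, at 0%, had at least 49824 reads in each library.

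Of the 40 nuclear members, 21 had no 50-base stretch in common with another annotated gene and 19 had some. In 5 of them over 20% of stretches were shared, with Ndufs3 highest at 39.7%. Exons of 13 overlapped another annotated gene, such as Cox4i1 with Emc8 and Ndufb5 with Mrpl47, and whether the counting used strand is not stated. The values of these genes are uncertain to that extent.

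Levels can be compared between genes only per length of transcript. On a scale of reads per kilobase of exon, scaled to the same total in each library (called TPM here), the nuclear members ranged from 1.97 TPM for Ndufb2 to 412.1 TPM for Cox4i1 as means of all 4 libraries. Ndufb2 is an accessory subunit of complex I whose annotated exons span 5628 bases and overlap 3 other genes, so its length-scaled level depends on that annotation. The median member stood at 70.2 TPM for complex I, 157.6 TPM for complex II, 89.3 TPM for complex III and 157.2 TPM for complex IV. The highest were Ndufa2 at 205.9 TPM, Sdhd at 240.9 TPM, Uqcrb at 190.8 TPM and Cox4i1 at 412.1 TPM. With the longest transcript in place of all exons, the highest were Ndufb9 at 187.0 TPM, Sdhb at 204.5 TPM, Uqcrb at 230.3 TPM and Cox4i1 at 650.0 TPM. The order within complexes I and II thus turned on how length was measured, while Uqcrb and Cox4i1 stood highest by either measure. The 6 mitochondrial members with many reads lay far above all nuclear ones, between 3213 TPM for mt-Nd4 and 21315 TPM for mt-Co1. These 2 genes share 62.2% and 51.1% of their 50-base stretches with other annotated transcripts. How far that moved their values was not tested, so the order among the 6 is uncertain.

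Several complex IV subunits come in tissue-specific forms, and the common ones carried the signal here. Cox4i1, the regulatory subunit found in most tissues, averaged 404.4 ± 8.89 TPM in IRF2 siRNA libraries and 419.8 ± 94.5 TPM in control libraries (SD, n = 2 each). Cox4i2, its lung and hypoxia-associated form, averaged 0.368 TPM over all 4 libraries. The muscle forms Cox6a2, Cox7a1 and Cox8b averaged 4.39, 5.73 and 0.723 TPM, beside 410.1, 116.5 and 561.6 TPM for Cox6a1, Cox7a2 and Cox8a. Cox6b2, a testis form, averaged 3.04 TPM beside 401.7 TPM for Cox6b1.

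**Figure D2:**
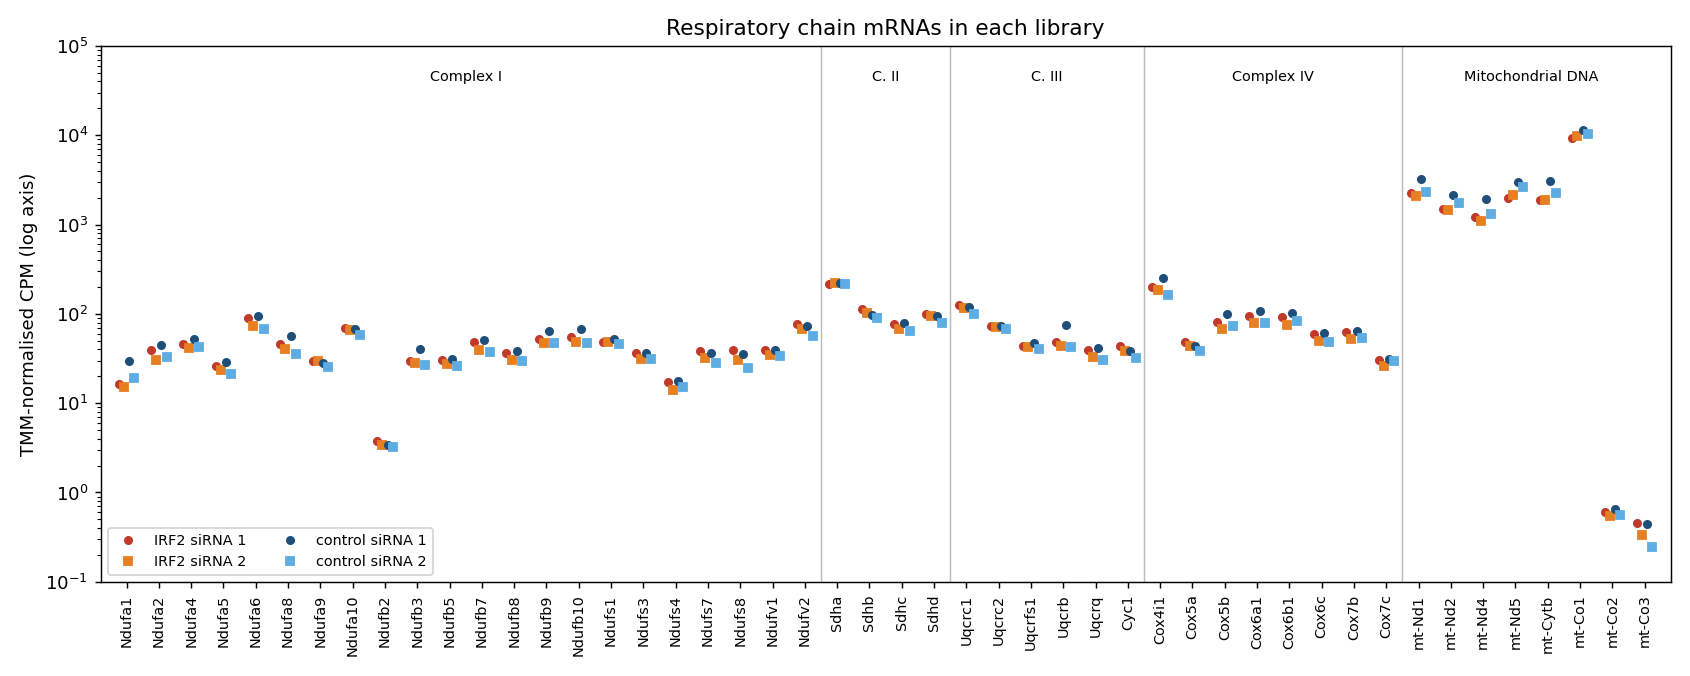
Level of each of the 48 members in each library (TMM-normalised CPM, log axis, not scaled to transcript length), grouped by complex and by genome, 1 point per library. The 6 mitochondrial members with many reads lie between 1091 CPM for mt-Nd4 and 11549 CPM for mt-Co1, above every nuclear member, while mt-Co2 and mt-Co3 lie under 1 CPM.

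The control libraries differed from each other in the same direction in every member. In 48 of 48 members control replicate 1 was higher than control replicate 2, by 0.02 to 0.78 on the log2 scale with a median of 0.32. Over the 13495 genes tested it was higher in 7016, or 52.0%, with a median difference of 0.02. The members were not alone in this. Control replicate 1 was also higher in 17 of 17 nuclear ATP synthase genes and 15 of 15 tested other complex I subunits. The same held for 75 of 77 tested mitochondrial ribosomal protein genes, but for only 12 of 17 tested assembly factors of complex IV. The IRF2 siRNA libraries lay closer together, with replicate 1 higher in 44 of 48 members and a median difference of 0.16. The largest difference between the controls was in Uqcrb, a small subunit of complex III, which had 74.2 and 43.1 CPM there. The smallest was in Sdha, the flavoprotein of complex II, with 220.3 and 217.7 CPM.

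Transcript length moved with this difference. Length was taken as that of the longest annotated transcript. Among the 14 nuclear members under 1000 bases the median difference between control replicates 1 and 2 was 0.47, and among the 26 longer ones it was 0.26. Over all genes the same medians were 0.35 in 1204 short genes and 0.00 in 12254 longer ones, and in genes over 6000 bases it was −0.40. The log2 fold change between IRF2 siRNA and control was below 0 in 13 of 14 short nuclear members, with a median of −0.14, and in 9 of 26 longer ones, with a median of 0.02. Over all genes it was below 0 in 710 of 1204 short ones, with a median of −0.07, and in 6055 of 12254 longer ones, with a median of 0.00. The fold change and the difference between controls share the control libraries. Once length and GC content were corrected for, the median of the nuclear members was 0.05 in place of −0.02. That of all 8 mitochondrial members, mt-Co2 and mt-Co3 included, was −0.29 in place of −0.38.

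**Figure D3:**
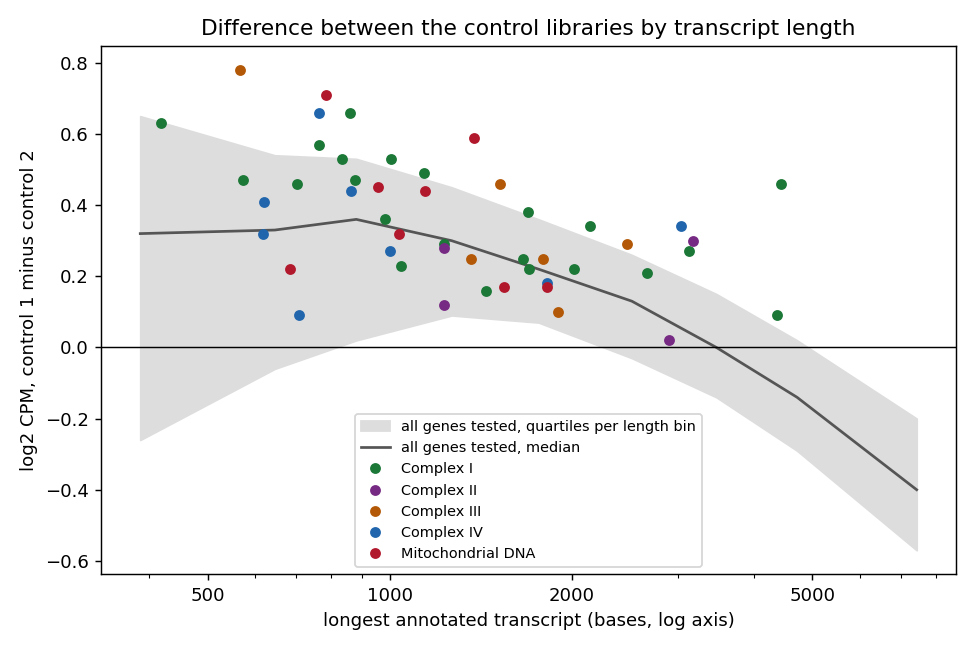
Difference between control replicates 1 and 2 (log2 CPM) against the length of the longest annotated transcript (bases, log axis) for the 48 members, with the median and quartiles of all genes in bins of length. All 48 members lie above 0, and the medians of all genes run from 0.36 between 750 and 1000 bases down to −0.40 over 6000 bases.

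All 48 members passed the filter on low counts, and with edgeR's quasi-likelihood test 0 of 48 had an adjusted p under 0.05, against 1.79% of all genes tested, 0.511% higher and 1.27% lower. At an unadjusted p under 0.05 there were 5 of 48, or 10.4%, against 10.9% of all genes. The share of all 48 together was near the background, but it was split unevenly by genome. These were 4 of the 8 mitochondrial members and 1 of the 40 nuclear members. DESeq2, limma-voom and edgeR's likelihood ratio test each called 0 members as well, against 3.16%, 1.68% and 5.11% of all genes in that order. The 95% intervals of 39 of the 40 nuclear members lay within a 2-fold change in either direction, with Ndufa1 the exception, and those of 31 within 1.5-fold. The median log2 fold change was −0.02 over the nuclear members and −0.38 over the mitochondrial ones, beside −0.0015 over all genes tested. Both IRF2 siRNA libraries lay above both control libraries in 4 members, Ndufa9, Sdhb, Sdhd and Cox5a, or 8.33%, against 19.0% of all genes. Both lay below in 7 members, or 14.6%, against 19.4% of all genes. These were Ndufa1 and the 6 mitochondrial members with many reads.

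Counts of called members turned on which control library was kept, with the group left with 1 library assumed to vary like the other. Without control replicate 1, edgeR called 2 of 48 members, or 4.17%, against 10.2% of genes. These were Ndufs8, higher by 0.50 on the log2 scale (adjusted p = 0.0097), and mt-Nd5, with a log2 fold change of −0.34 (adjusted p = 0.0441). Without control replicate 2, edgeR called 13 of 48, or 27.1%, all lower in the IRF2 siRNA libraries, against 12.8% of genes called in either direction and 7.67% called lower. These were the nuclear members Ndufa1, Ndufa8, Ndufb3, Ndufb9, Ndufb10, Uqcrb, Cox4i1 and Cox5b, and the mitochondrial members mt-Nd1, mt-Nd2, mt-Nd4, mt-Nd5 and mt-Cytb. Without IRF2 siRNA replicate 1 or 2 edgeR called 0 members, against 1.68% and 1.67% of genes.

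**Figure D4:**
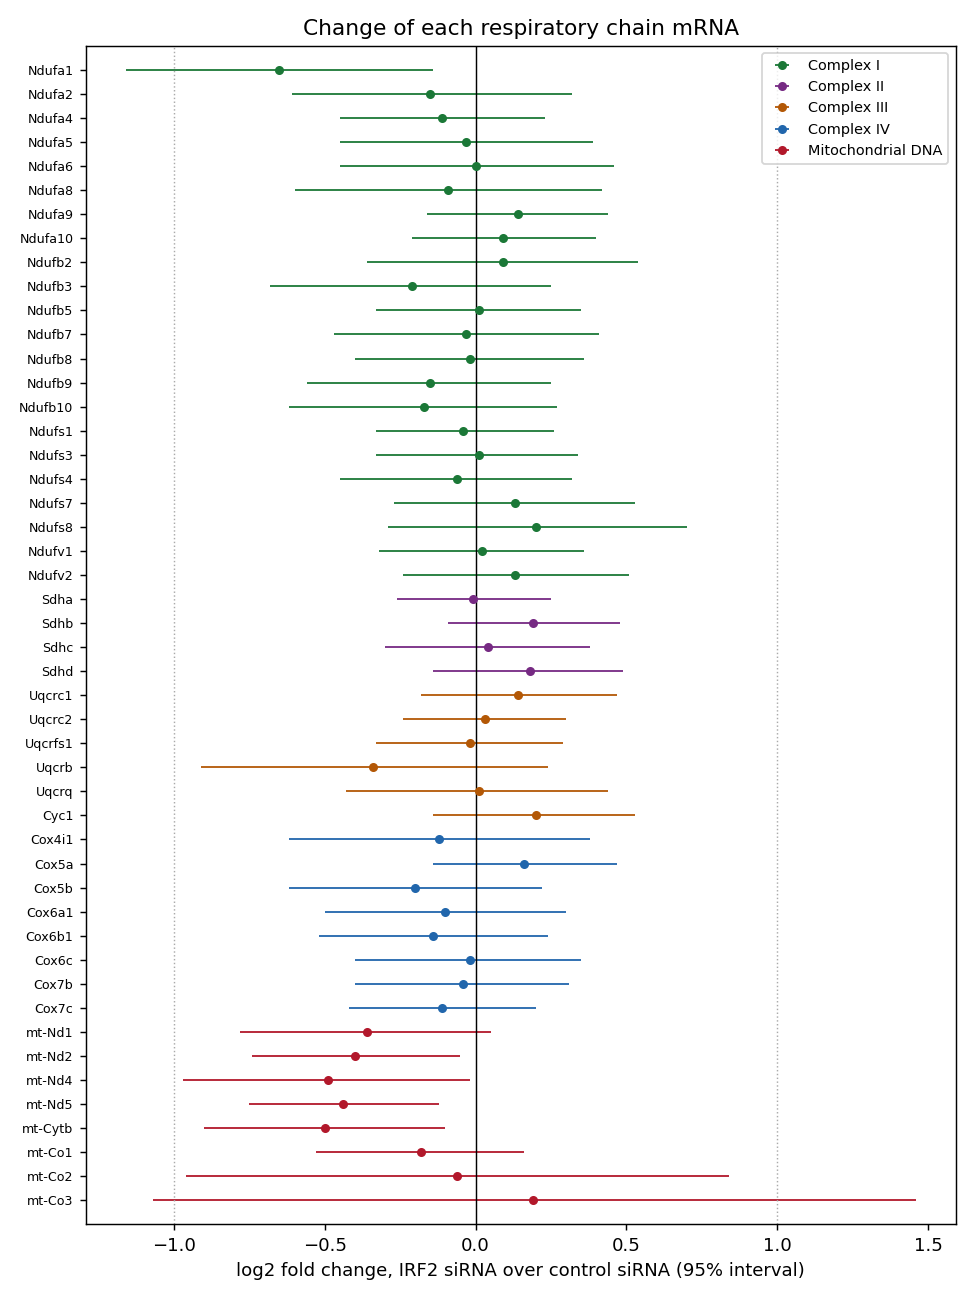
Log2 fold change of each member, IRF2 siRNA over control, with its 95% interval from edgeR, grouped by complex. Nuclear members scatter around 0 with a median of −0.02, and the mitochondrial members with many reads lie between −0.50 and −0.18.

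Complex I passes electrons from NADH through a matrix arm of flavin and iron-sulfur subunits into a membrane arm. The core subunits of the matrix arm lay close to no difference, with log2 fold changes of −0.04 for Ndufs1, 0.01 for Ndufs3, 0.13 for Ndufs7, 0.20 for Ndufs8, 0.02 for Ndufv1 and 0.13 for Ndufv2. Ndufv1 carries the flavin that takes electrons from NADH, Ndufv2 holds an iron-sulfur cluster beside it, and Ndufs7 and Ndufs8 lie next to the quinone site. Over all 22 nuclear members of the complex the median was −0.02, 10 were above 0 and 12 below, and 0 were called by edgeR.

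Ndufa1, a small accessory subunit of the membrane arm on chromosome X (GRCm38, 37187588 to 37191163, minus strand), was the nuclear member furthest from 0. It had 16.3 and 15 CPM in the IRF2 siRNA libraries, against 29.9 and 19.3 CPM in the control libraries. The groups did not overlap, but the control libraries lay further apart than the lower control lay from the IRF2 siRNA libraries. The log2 fold change was −0.65 (SE 0.22, edgeR adjusted p = 0.292), and it was −0.30 without control replicate 1 and −0.93 without control replicate 2.

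Ndufa9, an accessory subunit near the quinone site, had 29.4 and 29.8 CPM in the IRF2 siRNA libraries and 28.4 and 25.4 CPM in the control libraries. All 4 values lay close together, with a log2 fold change of 0.14 (SE 0.13, edgeR adjusted p = 0.862). Ndufb3, an accessory subunit of the distal membrane arm, had 29.9 and 27.9 CPM in the IRF2 siRNA libraries and 40.1 and 27.0 CPM in the control libraries. Only control replicate 1 stood apart, and the log2 fold change was −0.21 (SE 0.20, edgeR adjusted p = 0.862). Ndufa2, an accessory subunit of the matrix arm with a thioredoxin-like fold, had 39.3 and 30.7 CPM in the IRF2 siRNA libraries and 45.0 and 32.5 CPM in the control libraries. Replicate 1 was the higher of the 2 in each group, and the groups overlapped. Ndufa4, first described in complex I and since placed in complex IV, had a log2 fold change of −0.11 (edgeR adjusted p = 0.923).

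Complex II, succinate dehydrogenase, also works in the citric acid cycle, and its members had the highest median among the complexes, 0.11 over 4 genes with 0 called by edgeR. Sdhb, the iron-sulfur subunit, had 113.5 and 101.3 CPM in the IRF2 siRNA libraries and 97.8 and 89.9 CPM in the control libraries. Sdhd, a membrane anchor, had 100.2 and 95.7 CPM in the IRF2 siRNA libraries and 95.1 and 78.3 CPM in the control libraries. In both genes the groups did not overlap but came close, with log2 fold changes of 0.19 (SE 0.12, edgeR adjusted p = 0.701) for Sdhb and 0.18 (SE 0.13, edgeR adjusted p = 0.795) for Sdhd. Sdhc, the other membrane anchor, had 77.7 and 68.4 CPM in the IRF2 siRNA libraries and 78.4 and 63.6 CPM in the control libraries. Its groups overlapped. Sdha, which binds the flavin and succinate, differed least of all members between the control libraries, with 216.8 and 219.1 CPM in the IRF2 siRNA libraries and 220.3 and 217.7 CPM in the control libraries. Its 95% interval ran from −0.26 to 0.25 on the log2 scale.

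In complex III the 6 nuclear members had a median log2 fold change of 0.02, and 0 were called by edgeR. Cyc1, the haem subunit that hands electrons to cytochrome c, had 43.2 and 37.9 CPM in the IRF2 siRNA libraries and 38.4 and 32.4 CPM in the control libraries. Uqcrc1, a core subunit that faces the matrix, had 126.1 and 115.4 CPM in the IRF2 siRNA libraries and 120.6 and 98.4 CPM in the control libraries. The log2 fold changes were 0.20 (SE 0.14, edgeR adjusted p = 0.776) and 0.14 (SE 0.14, edgeR adjusted p = 0.875), and in both genes IRF2 siRNA replicate 2 lay below control replicate 1. Uqcrb, which binds near ubiquinone, had 49.0 and 43.8 CPM in the IRF2 siRNA libraries and 74.2 and 43.1 CPM in the control libraries. Control replicate 1 stood far above the other 3 libraries. Its log2 fold change was −0.34 (SE 0.24, edgeR adjusted p = 0.777), with 0.11 without control replicate 1 and −0.68 without control replicate 2.

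In complex IV, 7 of 8 nuclear members were below 0 and 1 above, with a median of −0.10 and 0 called by edgeR. That direction turned on single libraries, since without control replicate 1 the median was 0.11 with 7 of 8 above 0, and without IRF2 siRNA replicate 2 it was 0.01 with 5 of 8 above 0. With all libraries the member above 0 was Cox5a, a structural subunit on the matrix side, with 48.0 and 43.6 CPM in the IRF2 siRNA libraries and 43.6 and 38.3 CPM in the control libraries (log2 fold change 0.16, SE 0.13, edgeR adjusted p = 0.816). Its lower IRF2 siRNA library and its higher control library met at this precision. Cox5b, the zinc-binding subunit, had 81.6 and 67.6 CPM in the IRF2 siRNA libraries and 99.0 and 72.9 CPM in the control libraries. Its log2 fold change was −0.20 (SE 0.18, edgeR adjusted p = 0.844), and the groups overlapped. Cox6b1, which links the monomers of the dimer, had 93.1 and 76.0 CPM in the IRF2 siRNA libraries and 103.4 and 82.9 CPM in the control libraries. The groups overlapped here too. Cox4i1 had 199.8 and 184.0 CPM in the IRF2 siRNA libraries and 255.1 and 161.6 CPM in the control libraries. Both IRF2 siRNA libraries lay between the controls, and the log2 fold change was −0.12 (SE 0.21, edgeR adjusted p = 0.952).

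The mitochondrial members with many reads were all lower in both IRF2 siRNA libraries than in both control libraries, though 0 were called by edgeR. Of all genes tested, 19.4% were lower in this way. Mitochondrial mRNAs are cut from long transcripts, so these members are not separate observations. The median log2 fold change was −0.42 over these 6 genes. With the replicate number as a block in the fit, 5 of the 6 were called, against 11.3% of all genes, but the labels name no pairing. With no block, the median over all 8 mitochondrial members was −0.38, with −0.14 without control replicate 1 and −0.54 without control replicate 2. The 8 include mt-Co2 and mt-Co3, which had almost no reads. These 2 were at 0.06 and 0.66 without control replicate 1, and at −0.18 and −0.19 without control replicate 2. mt-Nd5, a proton-pumping subunit of complex I, had 1991 and 2158 CPM in the IRF2 siRNA libraries and 2979 and 2639 CPM in the control libraries. Its log2 fold change of −0.44 (SE 0.13, edgeR adjusted p = 0.231) had the smallest unadjusted p of all 48 members, 0.0137. The gene, at 11742 to 13565 of the mitochondrial genome on the plus strand, overlaps mt-Nd6 on the minus strand. mt-Cytb, the quinone-binding cytochrome b of complex III, had 1881 and 1879 CPM in the IRF2 siRNA libraries and 3060 and 2257 CPM in the control libraries. The IRF2 siRNA libraries lay nearly on each other and the control libraries apart (log2 fold change −0.50, SE 0.17, edgeR adjusted p = 0.301). It was −0.26 without control replicate 1 and −0.70 without control replicate 2.

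mt-Nd2, another pumping subunit of complex I, had 1475 and 1474 CPM in the IRF2 siRNA libraries and 2159 and 1730 CPM in the control libraries. The log2 fold change was −0.40 (SE 0.15, edgeR adjusted p = 0.354), with −0.23 without control replicate 1 and −0.55 without control replicate 2. mt-Nd1, which lines the quinone channel, and mt-Nd4, a pumping subunit, had log2 fold changes of −0.36 (edgeR adjusted p = 0.540) and −0.49 (edgeR adjusted p = 0.430). In each the lower control library was closer to the IRF2 siRNA libraries than to the other control. Without control replicate 1 the values were −0.12 for mt-Nd1 and −0.17 for mt-Nd4, and without control replicate 2 they were −0.57 for mt-Nd1 and −0.76 for mt-Nd4. mt-Co1 had 9430 and 9773 CPM in the IRF2 siRNA libraries and 11549 and 10268 CPM in the control libraries, with a log2 fold change of −0.18 (SE 0.14, edgeR adjusted p = 0.811), and −0.09 without control replicate 1. It alone made up 51.7% and 53.0% of the reads of the 8 mitochondrial members in the IRF2 siRNA libraries, and 46.4% and 50.0% in the control libraries. These are shares of reads as counted, with almost none from mt-Co2 and mt-Co3, and are not read as shares of mRNA.

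As a share of all gene counts, the 8 mitochondrial members took 1.83% and 1.87% in the IRF2 siRNA libraries, and 2.42% and 2.07% in the control libraries. Their reads, also used in the ratio below, came almost wholly from 6 of the 8, with almost none from mt-Co2 and mt-Co3. The 40 nuclear members took 0.247% and 0.224% in the IRF2 siRNA libraries, and 0.257% and 0.210% in the control libraries. The mitochondrial share was thus lower in both IRF2 siRNA libraries, while the nuclear shares overlapped. A permutation of 2 against 2 libraries cannot reach 0.05, and no test was made of these shares. The mitochondrial rRNAs lay in the opposite order. mt-Rnr1, the small ribosomal RNA, had 1096 and 928.2 CPM in the IRF2 siRNA libraries and 770.5 and 509.3 CPM in the control libraries, with a log2 fold change of 0.66 (SE 0.21, edgeR adjusted p = 0.252). mt-Rnr2, the large one, had 866.2 and 656.6 CPM in the IRF2 siRNA libraries and 632.6 and 504.2 CPM in the control libraries. There were 9.29 and 11.6 reads of the mitochondrial members per rRNA read in the IRF2 siRNA libraries, and 17.7 and 20.3 in the control libraries. The ratio did not overlap between groups. How far the preparation of the RNA moved rRNA counts was not tested, and with DESeq2 mt-Rnr1 had an adjusted p of 0.0253.

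**Figure D5:**
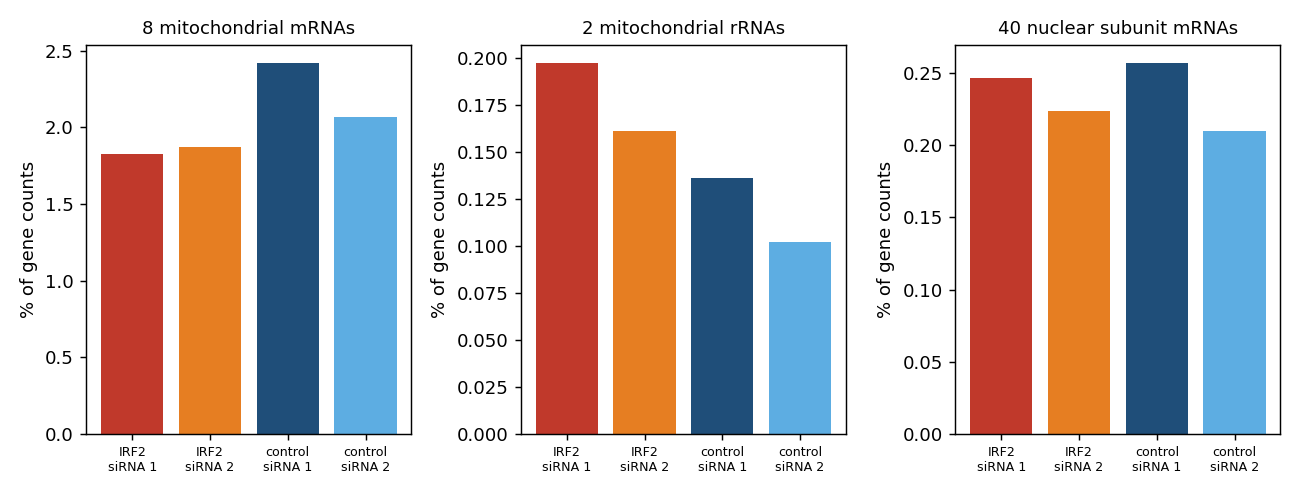
Percent of gene counts in the 8 mitochondrial members, the 2 mitochondrial rRNAs and the 40 nuclear members, 1 bar per library with axes of different height. The mitochondrial members are at 1.83% and 1.87% in IRF2 siRNA libraries and at 2.42% and 2.07% in control libraries, and the rRNAs lie in the opposite order, at 0.197% and 0.161% against 0.136% and 0.102%.

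Genes that build and surround the chain were read from 12 further lists with 214 genes, of which 200 were tested and 0 were called by edgeR. At an unadjusted p under 0.05 there were 7, or 3.5%, against 10.9% of all genes. DESeq2 called 2 of the 200, limma-voom 0 and the likelihood ratio test 2, against the 3.16%, 1.68% and 5.11% of all genes that these tests called. Over the 17 nuclear ATP synthase genes the median was −0.05 on the log2 scale. Of these 14 were below 0, against 6785 of the 13495 genes tested, and control replicate 1 was the higher control in all 17. Atp5k, a small subunit of the membrane part of ATP synthase, had 19.7 and 17.2 CPM in the IRF2 siRNA libraries. It had 32.1 and 23.5 CPM in the control libraries, a log2 fold change of −0.59 (edgeR adjusted p = 0.234). The 15 tested other subunits of complex I had a median of −0.09, with Ndufs6 at −0.30. The other 4 genes of complex III and cytochrome c had a median of −0.18, with Uqcrh, the hinge subunit, at −0.38 (edgeR adjusted p = 0.543). mt-Nd6 was at −0.52 (edgeR adjusted p = 0.427). The 6 tested other subunits of complex IV had a median of −0.47, which fell between genes with few reads and genes with many. Cox6a2, at −1.07 (edgeR adjusted p = 0.460), rested on 12 to 53 reads per library. Cox6b2, at −0.83, rested on 16 to 53 reads, and Cox7a1, at −0.70, on 16 to 40. Cox7a2, Cox7a2l and Cox8a, with at least 829 reads in every library, were at −0.05, −0.23 and 0.03. The median is therefore not read as a shift of complex IV subunits in general.

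Assembly factors showed no common direction. The medians were 0.08 for 15 factors of complex I, −0.03 for 10 of complexes II and III and 0.04 for 17 of complex IV. Coa7, a complex IV assembly factor, had 8.68 and 8.88 CPM in the IRF2 siRNA libraries and 5.99 and 4.61 CPM in the control libraries. Its log2 fold change of 0.73 (edgeR adjusted p = 0.136) had the smallest adjusted p of these lists, and the groups did not overlap. Ndufaf4 was at 0.29 (edgeR adjusted p = 0.572) and Sdhaf3 at −0.30 (edgeR adjusted p = 0.862). The 22 tested genes of mitochondrial DNA expression and biogenesis had a median of 0.02, with Polg, the mitochondrial DNA polymerase, at 0.27 (edgeR adjusted p = 0.541). The 77 tested mitochondrial ribosomal protein genes had a median of 0.03, with Mrps14 at 0.47 (edgeR adjusted p = 0.223). The 13 genes of mitochondrial content had a median of −0.0017. Among them Slc25a5, an ADP/ATP carrier of the inner membrane, had 170.7 and 158.5 CPM in the IRF2 siRNA libraries and 130.2 and 122.1 CPM in the control libraries. Its groups did not overlap, with a log2 fold change of 0.38 (edgeR adjusted p = 0.216).

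Promoters of the nuclear members were searched because IRF2 binds interferon-response elements and because nuclear respiratory genes are known targets of NRF1, ETS-family GABP and YY1. RefSeq promoters on GRCm38.p6, from 250 bases before to 50 after the start, matched 30 of the 40. Ndufa2, Ndufb9, Ndufs1, Sdhc, Uqcrc2, Uqcrb, Uqcrq, Cyc1, Cox4i1 and Cox6c were the others. The NRF1 motif searched was GCGCA and GCGC with any 1 base between them, and on either strand it was found in 7 of 30, or 23.3%, against 5.19% of 27025 genes. CCGGAAG (ETS) was found in 7, or 23.3%, against 9.93%, and AAGATGG (YY1) in 5, or 16.7%, against 7.28%. The interferon-response motif, GAAA and GAAA with any 2 bases between them, was found in 2, or 6.67%, against 3.99%. Sdha held 3 NRF1 matches, and the window of Ndufa1 held none of the 4 motifs. That window, chrX:37191189-37191488 on the minus strand, lies wholly upstream of the GENCODE start of Ndufa1 at 37191163.

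The pair with the interferon-response letters was Ndufa9, at chr6:126849095-126849394 on the minus strand, and Ndufs3, at chr2:90904672-90904971 on the minus strand. They are shown to mark where those letters lie, and binding by IRF2 was not tested. With 2 of 30 members against 3.99% of all genes, such matches do not set the members apart. Capitals mark each match to any of the 4 motifs, read on either strand.
Ndufa9 promoter: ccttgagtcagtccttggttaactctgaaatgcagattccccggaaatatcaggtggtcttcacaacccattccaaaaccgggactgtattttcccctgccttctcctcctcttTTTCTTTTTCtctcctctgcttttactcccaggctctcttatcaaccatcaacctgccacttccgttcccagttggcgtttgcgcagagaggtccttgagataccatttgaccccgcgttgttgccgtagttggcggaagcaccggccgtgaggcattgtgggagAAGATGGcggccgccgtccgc
Ndufs3 promoter: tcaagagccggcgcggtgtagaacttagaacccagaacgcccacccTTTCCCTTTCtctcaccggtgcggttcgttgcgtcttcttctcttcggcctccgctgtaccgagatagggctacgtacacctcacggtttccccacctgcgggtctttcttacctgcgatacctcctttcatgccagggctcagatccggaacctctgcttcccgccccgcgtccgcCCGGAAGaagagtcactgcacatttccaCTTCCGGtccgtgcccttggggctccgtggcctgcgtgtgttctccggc
In Ndufa9 the first match reads as the reverse complement of the interferon-response letters and the second is AAGATGG. In Ndufs3 the first is again the reverse complement of the interferon-response letters, followed by CCGGAAG and by its reverse complement. The log2 fold changes of these genes were 0.14 and 0.01, and neither was called by edgeR.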

How the data were processed

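RNA sequencing libraries of 2 IRF2 siRNA and 2 control siRNA samples of mouse bone marrow-derived macrophages were grouped by the siRNA in their labels. The authors deposited raw counts of reads per gene in 1 table, checked here to be whole numbers with different totals. Per the submitters' processing notes, the tools were bcl2fastq 2.18.0.12, STAR 2.5.2b, HTSeq 0.6.0 and DESeq2, with mm10. Which annotation release and strand setting the counting used is not given in the sources used here. The 5 summary rows that name no gene, 23.4% and 23.1% of reads in IRF2 siRNA libraries and 24.4% and 24.2% in control libraries, were left out. Symbols, lengths, overlaps and transcripts came from GENCODE M21 on GRCm38, which named 48435 of 48795 genes.

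The analysis ran in edgeR 4.0.16 under R 4.3.3. filterByExpr, at a minimum count of 10 and a minimum total of 15, kept 13495 genes. TMM factors were 1.005 and 1.014 for IRF2 siRNA libraries and 0.9729 and 1.009 for control libraries. The siRNA group was tested with glmQLFit (legacy = FALSE) and glmQLFTest, with Benjamini-Hochberg adjustment over all genes tested, and an adjusted p under 0.05 was called, which held for 241 genes, 69 higher and 172 lower. The biological coefficient of variation was 12.6%. Replicates differed by more than sampling noise, with a chi-square per degree of freedom of 9.32 for IRF2 siRNA and 46.2 for control. The fit was tested on simulated counts.

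The members and lists were chosen with earlier results of these data known. The genes named are Irf2, the 3 members with the smallest p and the highest length-scaled level in each of 5 blocks, and the smallest p of each other list. Others, such as Ndufs3, Ndufs8, mt-Nd1, mt-Nd4, mt-Co2, mt-Co3, the matrix-arm subunits, tissue-specific forms and mt-Rnr2, were chosen after their values were seen, or for their role. Shared sequence was counted over stretches of 50 bases on either strand. Alternatives covered scaling, filtering, DESeq2 1.42.0, limma-voom in limma 3.58.1, the likelihood ratio test, the threshold, length and GC content, the replicate block and leaving out each library.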

Additional observations from a re-analysis of the deposited data

How the results depend on the processing

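Each group has 2 libraries, and which control library is kept moves many of the members' values. Of 495 values of 31 named genes under 16 alternatives, 432 kept their direction and side of the threshold, 51 passed it and 12 changed sign. The number of genes called, 241 with edgeR, was 50 at an adjusted p under 0.01, 72 with no filter, 427 with DESeq2, 690 with the likelihood ratio test, 618 with a length and GC correction, and 237 to 1770 on leaving out 1 library each. Members called, 0 with edgeR, numbered 0 to 13 on leaving out 1 library each, with 2 without control replicate 1 and 13 without control replicate 2. The labels name no pairing, and deviations of same-numbered libraries correlated at 0.373. With the replicate number as a block, 7 members (14.6%) and 1521 genes (11.3%) were called, with Ndufa1, Uqcrb, mt-Nd1, mt-Nd2, mt-Nd4, mt-Nd5 and mt-Cytb all lower. With the block and the length and GC correction 8 members (16.7%) and 1758 genes (13%) were called, with Sdhb, Sdhd and Ndufs8 higher and Ndufa1, mt-Nd2, mt-Nd4, mt-Nd5 and mt-Cytb lower. Under the other alternatives 0 members were called. On leaving out 1 library each, the log2 fold change spanned −0.41 to 0.25 for Cox4i1, −0.41 to 0.04 for Cox5b, −0.29 to 0.03 for Cox6b1, −0.36 to 0.11 for Ndufa2, −0.47 to 0.10 for Ndufb3, −0.58 to 0.04 for Ndufs6, −0.55 to 0.02 for Sdhaf3, −0.10 to 0.20 for Sdhc and −0.68 to 0.11 for Uqcrb. These include the 12 changes of sign. By complex the median of nuclear members spanned −0.18 to 0.15 for I, 0.01 to 0.23 for II, −0.08 to 0.19 for III and −0.24 to 0.11 for IV. The median of nuclear members ranged from −0.16 to 0.15 and that of all 8 mitochondrial members, mt-Co2 and mt-Co3 included, from −0.54 to −0.14. With summary reads in the total, the mean mitochondrial share was 1.42% in IRF2 siRNA libraries and 1.70% in control libraries. The cause of these differences was not tested.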
